A study of Mus musculus with 3 samples.

Results

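The proteasome is the protease complex that degrades ubiquitin-tagged proteins, and 48 genes of its family were described in 3 samples of normal mouse muscle. They were every gene with a symbol starting with Psma, Psmb, Psmc, Psmd, Psme, Psmf or Psmg that had a probe set naming that gene alone, out of 12394 genes on the array. The choice used symbols only, and each gene was read from its brightest probe set on average. Every muscle showed 46 of the 48 genes above background, and 2 genes never reached it, whereas the shares over all genes were 53.9% and 40.8%. The family divides by role into 14 standard core subunits, 3 inducible catalytic subunits, 17 subunits of the regulatory particle, 4 genes of activators and an inhibitor, 7 assembly chaperones and 1 restricted core subunit, Psma8. The remaining 2 genes, Psmc3ip and Psme3ip1, have the prefix but were placed in none of these roles. Psmc3ip encodes a partner in meiotic recombination, and Psme3ip1 encodes a protein that binds the activator subunit Psme3.

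The donors were mice of 3 to 6 weeks whose genotype is labelled littermate control, each muscle was hybridised to 1 array, and the muscles served as the normal reference for tumours derived from Pax7-expressing satellite cells. All 3 share the same labels, so there is a single group and no contrast. Strain, sex, which muscle was sampled and whether each sample came from its own animal are not stated in the labels, so an SD or p-value here may reflect technical spread alone. The treatment text common to the labels describes hindlimb injection of 4-hydroxytamoxifen in mice that formed tumours, and it does not say whether the controls received it. Markers of the labelled tissue were present: all 7 skeletal muscle markers were above background, with the creatine kinase Ckm at 13.61 ± 0.014 and the actin Acta1 at 13.62 ± 0.034. Levels are on the log2 scale of the RMA values, per muscle or as mean ± SD (n = 3). A gene is called detected above a background level, set at the 95th percentile of the signal of 59 genes restricted to other organs (83 probe sets), which came to 6.13 (muscle 1), 6.38 (muscle 2) and 6.18 (muscle 3). By this rule 4 of the 59 genes were themselves detected in all 3 muscles and 3 in some. Probe sets bind their targets with different strength, so no gene's level was ranked against another's. In whole tissue, fewer cells of a type and less RNA per cell cannot be told apart.

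As background, the core particle is a barrel of alpha and beta rings, with the proteolytic sites inside on 3 of the beta subunits. The regulatory particle caps the barrel, recognises ubiquitin, unfolds the substrate with a ring of ATPases and threads it inward. In cells exposed to interferon gamma the 3 catalytic subunits are replaced by inducible counterparts, which gives the immunoproteasome and favours peptides suited to MHC class I. In skeletal muscle the ubiquitin-proteasome system carries out much of the turnover of contractile proteins and is engaged during atrophy.

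The promoters of 2 of the 3 catalytic pairs, Psmb5 with Psmb8 and Psmb6 with Psmb9, are shown first because they set standard and inducible subunits side by side. RefSeq windows on GRCm38.p6, from 250 bases before to 50 after the gene start, were found for 40 of the 48 genes. The genes without one were Psma8, Psmb1, Psmb2, Psmb7, Psmc3, Psmd3, Psmd7 and Psmg2. The third pair, Psmb7 with Psmb10, is not shown because Psmb7 is among these; the Psmb10 window held 1 match to the 8 motifs searched, CACGTG, beginning 116 bases before the start. Capitals mark a match, on either strand, to TGACNNNGC in Psmb5 and Psmb6, the core of the antioxidant response element bound by Nfe2l1 and Nfe2l2. In Psmb8 they mark TTCNNNGAA, the gamma-activated site bound by Stat dimers, and in Psmb9 the CCAAT box. Psme1, an interferon-inducible activator subunit, is added with capitals on GAAANNGAA, most of the core of the interferon response element. Only 1 motif is marked per window. Not marked are matches to the GC box GGCGGG in Psmb6, Psmb8, Psmb9 and Psme1, and to the TATA box TATAAA in Psmb8.
Psmb5, chr14:54617946-54618245, minus strand: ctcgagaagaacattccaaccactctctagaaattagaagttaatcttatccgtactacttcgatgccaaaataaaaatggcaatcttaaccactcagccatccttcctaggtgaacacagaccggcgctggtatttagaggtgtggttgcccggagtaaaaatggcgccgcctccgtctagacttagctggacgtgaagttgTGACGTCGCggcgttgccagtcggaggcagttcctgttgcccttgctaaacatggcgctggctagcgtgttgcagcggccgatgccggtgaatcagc
Psmb6, chr11:70525107-70525406, plus strand: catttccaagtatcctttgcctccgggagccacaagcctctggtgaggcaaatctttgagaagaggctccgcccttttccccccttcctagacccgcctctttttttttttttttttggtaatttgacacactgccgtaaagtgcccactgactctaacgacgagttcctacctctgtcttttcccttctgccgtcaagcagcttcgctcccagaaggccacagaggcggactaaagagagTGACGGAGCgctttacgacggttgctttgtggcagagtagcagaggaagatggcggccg
Psmb8, chr17:34197945-34198244, plus strand: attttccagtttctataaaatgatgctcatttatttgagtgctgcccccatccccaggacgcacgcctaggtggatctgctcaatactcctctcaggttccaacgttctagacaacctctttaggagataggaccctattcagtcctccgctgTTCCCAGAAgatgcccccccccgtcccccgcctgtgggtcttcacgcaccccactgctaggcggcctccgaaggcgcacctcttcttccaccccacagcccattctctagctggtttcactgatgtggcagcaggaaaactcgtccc
Psmb9, chr17:34187281-34187580, minus strand: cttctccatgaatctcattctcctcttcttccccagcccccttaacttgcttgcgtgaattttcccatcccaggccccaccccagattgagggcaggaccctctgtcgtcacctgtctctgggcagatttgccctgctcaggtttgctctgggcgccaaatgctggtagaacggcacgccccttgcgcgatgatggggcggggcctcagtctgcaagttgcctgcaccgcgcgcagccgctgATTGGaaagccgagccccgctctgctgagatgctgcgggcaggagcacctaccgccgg
Psme1, chr14:55578244-55578543, plus strand: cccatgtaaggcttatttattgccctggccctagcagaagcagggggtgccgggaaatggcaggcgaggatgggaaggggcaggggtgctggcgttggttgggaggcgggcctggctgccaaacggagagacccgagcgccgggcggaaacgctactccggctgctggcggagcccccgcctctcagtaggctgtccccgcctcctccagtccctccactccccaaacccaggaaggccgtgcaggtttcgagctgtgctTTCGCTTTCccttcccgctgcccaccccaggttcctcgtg
The marked match began 47 bases before the gene start in Psmb5, 9 before it in Psmb6, 97 before it in Psmb8 and 8 before it in Psmb9, and 10 bases after the start in Psme1. The Psmb9 window overlaps the start of Tap1, a peptide transporter gene that lies next to it and reads in the opposite direction.

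Over the 40 genes with a window, TGACNNNGC was found in 6, or 15%, against 14% of all 27025 genes with a window and 17% of the 5473 such genes detected in all 3 muscles. The ETS core CCGGAAG was found in 16 of 40, or 40%, against 9.93% of all genes and 21.6% of the detected ones, and the GC box GGCGGG in 30, or 75%, against 37.9% and 70.2%. CCAAT was present in 15 genes, or 37.5%, against 41.1% and 43.2%. The E-box CACGTG was present in 5 genes, 12.5%, against 8.09% and 12.6%. TATAAA was present in 4, 10%, against 15.7% and 8.97%. GAAANNGAA was present in 7, 17.5%, against 9.76% and 8.2%, namely Psme1, Psmb3, Psmb4, Psmc2, Psmd4, Psmd9 and Psmg4. TTCNNNGAA was present in 3, 7.5%, against 9.55% and 7.71%, namely Psmb8, Psmd2 and Psmg1. CCGGAAG matches fell in 9 of the 14 regulatory particle genes with a window, 2 of 4 activators and inhibitor, and 2 of 6 chaperones. They fell in 1 of 7 alpha ring genes and in 2 of the 2 genes outside the roles, Psmc3ip and Psme3ip1. The counts were 0 of 2 non-catalytic beta, 0 of 2 standard catalytic and 0 of 3 inducible catalytic genes. These groups are small, and differences between them were not tested. The motifs were chosen with these promoters in view, a match is not a binding site, and among the matches only 1 TGACNNNGC and 1 GGCGGG overlapped another of the 8 motifs.

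All 7 genes of the alpha ring, which gates entry to the barrel, were detected in every muscle. Psma1 was at 10.003 (muscle 1), 10.06 (muscle 2) and 9.80 (muscle 3). Psma2 was at 10.97, 10.88 and 10.89 in the same order, and Psma3 at 11.88, 11.91 and 11.96. Psma1 was lower in muscle 3 than in the others, while Psma3 was highest there, and both differences were under 0.27. Psma4, Psma5 and Psma6 were at 10.74 ± 0.019, 10.24 ± 0.020 and 11.36 ± 0.072. Psma7 was at 9.82 (muscle 1), 9.88 (muscle 2) and 9.62 (muscle 3). Like Psma1, it was lowest in muscle 3. Psma8, the testis counterpart of Psma7 in the core, was below background in every muscle, at 3.35, 3.64 and 3.36 in muscles 1 to 3.

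The 4 beta subunits without catalytic activity were detected throughout and were nearly level between muscles. Psmb1 was at 10.87, 10.90 and 10.82 in muscles 1, 2 and 3, and Psmb2 at 9.30, 9.22 and 9.33. Psmb3 was at 11.14, 11.14 and 11.14, with the smallest SD of the family, 0.0012. That SD is of its brightest probe set, and its other detected probe set was at 10.12, 10.08 and 10.003. Psmb4 was at 10.95 ± 0.017. Among the brightest probe sets the widest range, the highest minus the lowest muscle, was 0.105, for Psmb2.

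The standard catalytic subunits were detected in all 3 muscles. Psmb5, which carries the chymotrypsin-like activity, was at 10.95 (muscle 1), 10.78 (muscle 2) and 10.66 (muscle 3). Psmb6, the caspase-like subunit, was at 10.83, 10.82 and 10.84 in muscles 1, 2 and 3. Psmb7, the trypsin-like subunit, was at 11.37, 11.35 and 11.41. Psmb5 was highest in muscle 1 and lowest in muscle 3, over a range of 0.29, whereas Psmb6 and Psmb7 spanned 0.012 and 0.062. The 3 genes therefore did not share an order of the muscles.

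The inducible catalytic subunits were also above background in every muscle. Psmb8, the counterpart of Psmb5, was at 7.04 (muscle 1), 7.03 (muscle 2) and 7.01 (muscle 3). Psmb9, the counterpart of Psmb6, was at 6.77, 6.69 and 6.74 in muscles 1, 2 and 3. Psmb10, the counterpart of Psmb7, was at 7.73, 7.80 and 7.72. Their ranges were 0.026, 0.087 and 0.085, so the muscles hardly differed in these genes. With background set at the 99th percentile of the same probe sets, 6.77, 6.70 and 6.83 in the 3 muscles, Psmb9 was below it in all 3. Psmb8 and Psmb10 stayed above that stricter level. Each of the 3 genes had a single probe set, so no second probe set could be compared.

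**Figure D1:**
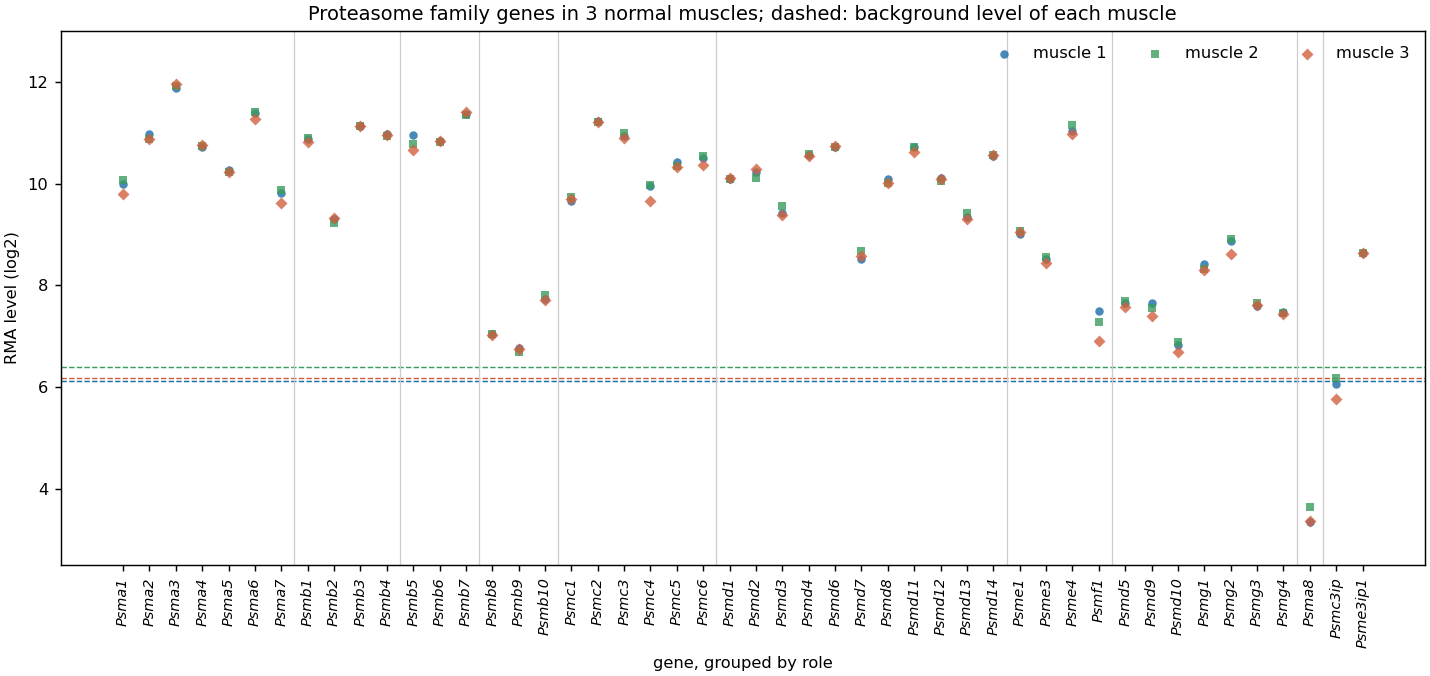
RMA level (log2, vertical axis) of each of the 48 genes in muscle 1 (circles), muscle 2 (squares) and muscle 3 (diamonds), ordered from left to right as alpha ring, non-catalytic beta, standard catalytic, inducible catalytic, ATPases, other regulatory particle subunits, activators and inhibitor, chaperones, Psma8, Psmc3ip and Psme3ip1. Dashed lines are the background level of each muscle; only Psma8 and Psmc3ip lie below all of theirs, and levels of different genes are not comparable.

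The ring of 6 ATPases that unfolds substrates was detected complete. Psmc1 was at 9.66, 9.74 and 9.70 in muscles 1, 2 and 3. Psmc2 was at 11.24, 11.22 and 11.21 and Psmc3 at 10.93, 10.999 and 10.89. Psmc4 was at 9.96 (muscle 1), 9.97 (muscle 2) and 9.66 (muscle 3), so muscle 3 was lower than the others by 0.30. Among the brightest probe sets this was the largest departure of a subunit of the complex. Psmc5 and Psmc6 were at 10.37 ± 0.058 and 10.48 ± 0.096. All 6 ATPase genes had a value in muscle 3 below the mean of the other muscles, as had 63.2% of all genes, although for Psmc1 the departure was -0.0001.

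The 11 other subunits of the regulatory particle were all detected. Psmd1, a scaffold of the base, was at 10.09, 10.10 and 10.11 in muscles 1, 2 and 3. Psmd2, which docks ubiquitin shuttles, was at 10.24, 10.11 and 10.28 and Psmd3, of the lid, at 9.42, 9.57 and 9.38. Psmd1 was level, Psmd2 was lowest in muscle 2 and Psmd3 was highest in muscle 2. The ubiquitin receptor Psmd4 was at 10.56 ± 0.027 and the deubiquitinase Psmd14 at 10.56 ± 0.014. The lid subunit Psmd11 was at 10.69 ± 0.065 and Psmd7, the partner of Psmd14, at 8.59 ± 0.075. The remaining lid genes Psmd6, Psmd8, Psmd12 and Psmd13 had SDs from 0.016 to 0.059. Among the brightest probe sets the widest range of the group was 0.191, for Psmd3. A dimmer detected probe set of Psmd4 spanned more, at 9.02, 8.90 and 8.79 in muscles 1, 2 and 3. So did a dimmer one of Psmd6, at 8.38, 8.38 and 8.62.

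The alternative caps were detected too. Psme1, a subunit of the interferon-inducible activator, was at 9.003, 9.07 and 9.06 in muscles 1, 2 and 3, with a range of 0.068. Its partner Psme2 was covered only by a probe set that also names Psme2b and so is not among the 48, and that probe set was at 9.05, 8.95 and 8.93. Psme3, a nuclear activator, was at 8.51, 8.55 and 8.43. Psme4, the large activator known from histone degradation, was at 11.04, 11.16 and 10.98. All of these were well clear of background and differed by under 0.19 between muscles. Psmf1, which binds the core and inhibits it in vitro, had the widest range of the family, at 7.49 (muscle 1), 7.28 (muscle 2) and 6.91 (muscle 3). Muscle 3 was thus lowest and muscle 1 highest, over 0.58, which is a factor of 1.497.

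Each of the 7 chaperones that guide assembly was detected. Psmg1 and Psmg2, which act as a pair on the alpha ring, were at 8.42, 8.32 and 8.30 and 8.86, 8.91 and 8.62 in muscles 1, 2 and 3. Psmg3 and Psmg4, the other pair, were at 7.60, 7.65 and 7.61 and 7.47, 7.46 and 7.43. The chaperones of the ATPase ring, Psmd5, Psmd9 and Psmd10, were at 7.64 ± 0.059, 7.53 ± 0.128 and 6.80 ± 0.106. Psmd10 dropped below the stricter background level in muscle 3, at 6.68. In 6 of the 7 chaperones muscle 3 was the lowest, against 47.3% of all 7342 genes detected in at least 1 muscle. Of the pair outside the roles, Psme3ip1 was at 8.63 ± 0.0048 and Psmc3ip was below background, at 6.05, 6.18 and 5.76. Psmc3ip was above background in all 3 muscles when the level was taken from 71 probe sets of olfactory, vomeronasal and taste receptors.

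Genes that act with the inducible subunits were looked at in the same arrays. In the list of class I antigen presentation all 10 measured genes were detected in every muscle. Tap1 was at 6.37, 6.46 and 6.37 in muscles 1, 2 and 3, close to background in muscle 2, and its other 3 probe sets were below background in all 3 muscles. Tap2, the other transporter chain, was at 7.02 ± 0.120, Tapbp, which joins the transporter to class I molecules, at 8.88 ± 0.059 and the class I light chain B2m at 10.73 ± 0.060. Among 8 genes of interferon gamma signalling, 5 were detected throughout, 2 nowhere and 1 in some muscles. Ifng itself was below background, at 3.12, 3.42 and 2.85, and so was the feedback inhibitor Socs1, at 5.74 ± 0.025. The transcription factor Irf8 was above background in muscle 3 only, at 6.05, 6.37 and 6.40. The receptor chain Ifngr1 was at 8.51 ± 0.196, the kinases Jak1 and Jak2 were at 9.73 ± 0.023 and 8.57 ± 0.081, and Irf1, a transcription factor that induces Psmb9, was at 7.83 ± 0.075.

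The other receptor chain, Ifngr2, was the only gene of these lists called by limma's variance test, with an adjusted p of 0.0475. It was also called after quantile normalization and without probe sets matching several transcripts, but under none of the other alternatives, where limma's adjusted p ran from 0.0546 to 0.996. It was at 8.21 (muscle 1), 8.26 (muscle 2) and 9.32 (muscle 3). Its second probe set was at 7.05, 7.48 and 7.51, so it did not repeat the gap between muscle 3 and muscle 2. Psmb8, Psmb9, Psmb10 and Psme1 departed in muscle 3 by -0.02, 0.02, -0.05 and 0.02 from the mean of the other muscles. Leukocytes express the inducible subunits without induction, so their markers were counted: 11 of 16 were detected throughout, 4 nowhere and 1 in some muscles. The common leukocyte antigen Ptprc was at 8.88 ± 0.093, Laptm5 at 7.95 ± 0.089, Coro1a at 8.22 ± 0.091 and the macrophage gene Adgre1 at 8.44 ± 0.151. The 12 markers detected in at least 1 muscle departed by a median of 0.01 (muscle 1), 0.07 (muscle 2) and -0.14 (muscle 3). Over all genes these medians were 0.03, 0.01 and -0.04. Cd68, Itgam, Cd3g and Cd8a were below background throughout. Leukocyte markers were thus present with the inducible subunits in every muscle, and their part in the levels of Psmb8, Psmb9 and Psmb10 was not tested.

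**Figure D2:**
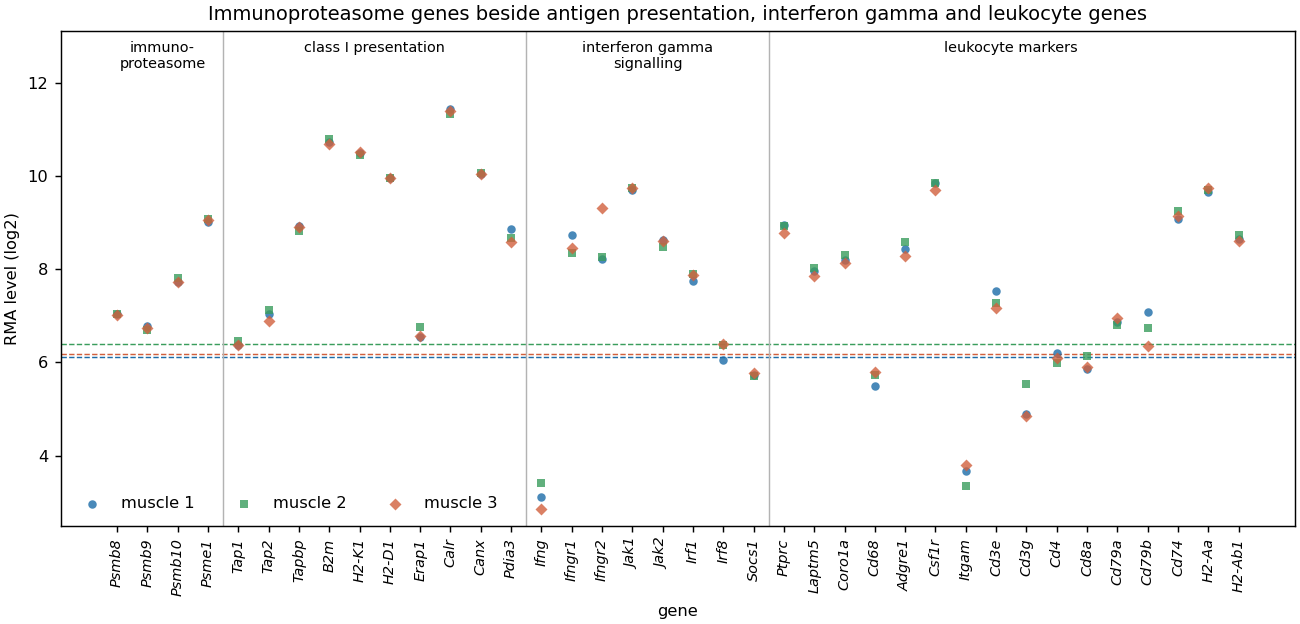
RMA level (log2, vertical axis) per muscle of the inducible catalytic subunits and Psme1, followed by the measured genes of class I presentation, interferon gamma signalling and leukocyte markers; circles, squares and diamonds are muscles 1, 2 and 3, and dashed lines their background levels. Psmb8, Psmb9 and Psmb10 lie above background in all 3 muscles, while Ifng, at 2.85 to 3.42, lies far below it.

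Genes around the proteasome outside the family were detected almost throughout. Of the partners of the complex, all 10 measured were above background in all 3 muscles. Among them the maturation factor Pomp was at 10.50 ± 0.079, the small lid subunit Sem1 at 11.43 ± 0.060, Ecpas, which stabilises the assembled complex, at 9.37 ± 0.071 and the deubiquitinase Usp14 at 8.93 ± 0.166. Of the genes that supply ubiquitin only 3 ubiquitin-conjugating enzymes were measured by a probe set naming 1 gene, and all were detected, with Ube2d1 at 10.61 ± 0.041, Ube2d2a at 9.83 ± 0.026 and Ube2d3 at 11.06 ± 0.032. The 9 measured genes that extract and deliver ubiquitinated proteins were all detected, with the shuttles Rad23b, Ubqln1, Ubqln2 and Ubqln4 at 9.44 ± 0.080, 9.73 ± 0.023, 9.24 ± 0.057 and 9.49 ± 0.073. Of 12 regulators of proteasome genes 10 were detected in all 3 muscles. Nfe2l1, which raises transcription of the subunits when proteasome activity falls, was at 10.15, 10.17 and 10.19 in muscles 1, 2 and 3. Nfe2l2, the oxidative stress regulator, was at 9.24, 9.23 and 9.03. Nfe2l3 was below background, at 3.57 ± 0.074, and Nfya was above it in muscle 1 only, at 6.22, 6.16 and 5.19. The small Maf partners Maff and Mafg were at 6.58 ± 0.111 and 8.43 ± 0.068.

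Different probe sets of the same member often disagreed on detection. The 48 genes had 85 probe sets, of which 66 exceeded background in every muscle and 19 in none. For 27 genes there was a single probe set and for 21 there were several, up to 6 for Psmd11. In 11 genes a probe set detected in all 3 muscles stood beside another detected in none, namely Psma1, Psma5, Psma6, Psmb1, Psmc1, Psmd4, Psmd7, Psmd9, Psmd11, Psme3 and Psmf1. The means of the probe sets of Psma6 ran from 2.97 to 11.36, and those of Psma1 from 2.74 to 9.96. In Psmd11 4 of the 6 probe sets were detected, with means from 4.67 to 10.69. The level given for a gene is that of the brightest probe set, and with the mean over its probe sets 41 of the 48 genes were detected in all 3 muscles, Psma1, Psmc1, Psmd7, Psmd9 and Psmf1 being lost. Without probe sets marked as matching several transcripts, 40 genes remained and 36 of them were detected, with Psma5 and Psmb1 among the 4 that were not.

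**Figure D3:**
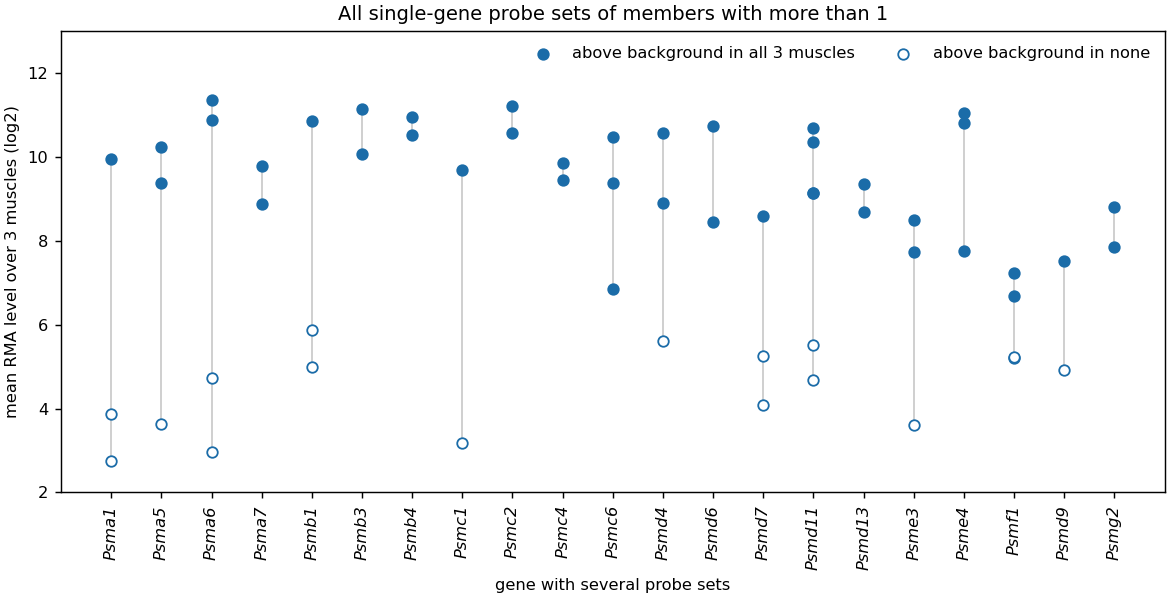
Mean RMA level over the 3 muscles (log2, vertical axis) of every probe set of the 21 genes with more than 1; filled circles are probe sets that exceed background in every muscle, open circles those that never do, and grey lines join the probe sets of a gene. In 11 genes both kinds occur, with the widest gap in Psma6.

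The muscles differed little in this family. Over the 46 detected genes the median SD was 0.0488, against 0.0796 over all 7342 genes detected in at least 1 muscle and 0.0561 over the 2191 genes whose mean lay between the quartiles of the family's means. Without muscle 2 the median SD was 0.0322 in the family and 0.0666 over all genes, each from 2 values per gene and so not directly comparable with those above. Set against limma's prior SD for a gene of the same level, the median ratio was 0.795 in the family and 0.875 over all genes, and 29 of 46 members, 63%, were below 1, as were 59.1% of all genes. No member had a range of at least 1.5-fold, and 2.22% of all genes did. Psmf1, at a factor of 1.497, lay just below that limit, and Psmc4, Psmg2 and Psmb5 followed with 1.24, 1.22 and 1.22. In limma's variance test 0 of 46 members were called at an adjusted p under 0.05, where 0.0817% of all genes were. With shares this small over all genes, counts of 0 in 46 members do not set the family apart. The smallest adjusted p of a member was 0.808, for Psmb5. At an unadjusted p under 0.05 there were 6 members, Psmb5, Psmc4, Psmf1, Psma1, Psma7 and Psme4, or 6 of 46, against 4.92% of all genes. With quantile normalization this count was 4, with the mean over probe sets 1, with no trend in limma's prior 1, and without muscle 3 it was 1.

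**Figure D4:**
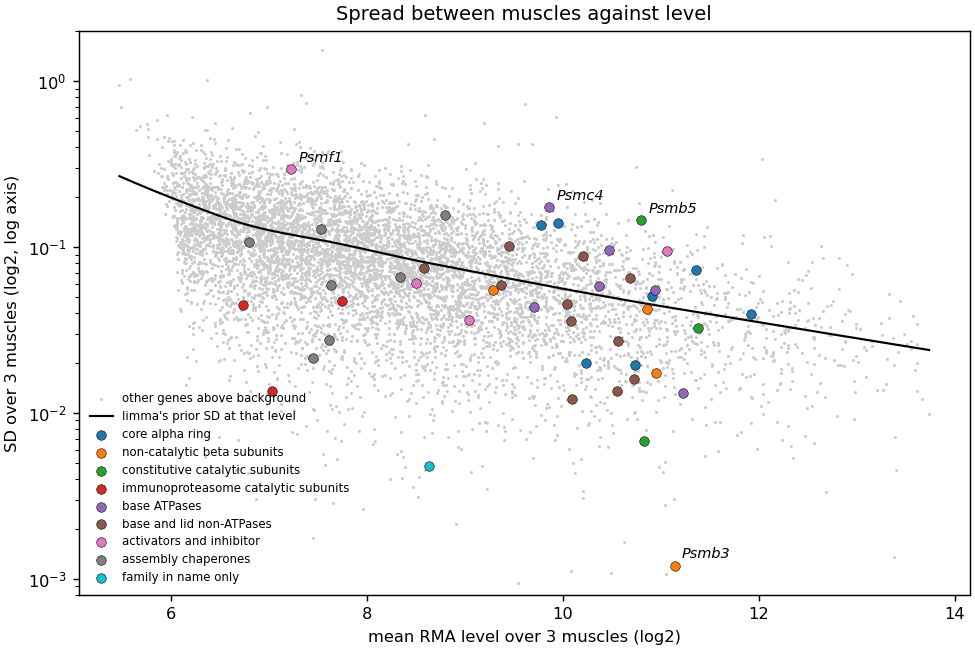
SD over the 3 muscles (log2, on a log axis) against the mean RMA level (log2) for the detected members, coloured by role, and for all other genes detected in at least 1 muscle in grey; the line is limma's prior SD at each level. Psmb5, Psmc4 and Psmf1 lie above the line, at 3.16, 2.99 and 2.48 times the prior SD, and Psmb3 is the lowest member.

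Muscle 3 was the lowest in 26 of the 46 detected members, and in each of the 6 with an unadjusted p under 0.05. The latter count was not made over all genes with such a p, so it does not set the family apart. Muscle 3 was also the lowest in 47.3% of all genes, and in 54.5% of genes of like level, so the count for the family lies near that of the arrays as a whole. The median departure of muscle 3, its value minus the mean of the other muscles, was -0.04 in the family and -0.04 over all genes, and in the family it was -0.0064 after quantile normalization of the 3 columns. For muscle 1 these medians were 0.02 and 0.03, and for muscle 2 they were 0.02 and 0.01. The family's median in muscle 1 turned to -0.01 without muscle 3, and after quantile normalization it was 0.0049 in muscle 1 and 0.011 in muscle 2. By role the median departure of muscle 3 ran from -0.11 for the activators and inhibitor, -0.09 for the chaperones and -0.07 for the ATPases to 0.006 for the standard catalytic subunits, without a test. After the same normalization muscle 3 was lowest in 18 members, and in 36.1% of all genes. The 5', middle and 3' probe sets of 18S ribosomal RNA were at 10.96, 10.52 and 10.34 in muscle 1. They were at 11.23, 10.80 and 10.50 in muscle 2 and highest in muscle 3, at 11.69, 11.04 and 10.77. The 5' probe sets of the spike-in controls DapX and ThrX were highest there as well, at 8.52 against 7.43 and 7.93 and at 7.20 against 6.21 and 6.66, while their 3' probe sets were lowest there, at 11.15 against 11.29 and 11.52 and at 9.85 against 10.02 and 10.32. The 12 leukocyte markers detected in at least 1 muscle had a median departure of -0.14 in muscle 3. The part of these shifts in the members' values was not tested.

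Second probe sets were compared for the members that were lowest in muscle 3. The second probe set of Psma7 was at 8.90, 8.94 and 8.79 in muscles 1, 2 and 3, again lowest in muscle 3. For Psmf1 the other detected probe set was at 6.77, 6.70 and 6.56, with the same order of muscles but a smaller span. All 3 probe sets of Psmc6 were lowest in muscle 3, departing by -0.16, -0.06 and -0.40. For Psmc4 the second probe set was at 9.43, 9.49 and 9.43, so the gap of 0.30 in its brighter probe set was not repeated. The detected probe sets of Psmg2 pointed in opposite directions in muscle 3, with departures of -0.27 and 0.30. For Psme4 the 3 probe sets departed by -0.12, 0.10 and -0.05. Psmb5 had a single probe set, and both other probe sets of Psma1 were below background. Among 16 members with several detected probe sets, all probe sets were below the other muscles in muscle 3 for 7, all above for 1, and mixed for 8. Over all genes, 63.2% had a value in muscle 3 below the mean of the other muscles. The same count of probe sets was not made over all genes, so these counts do not set the family apart.

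**Figure D5:**
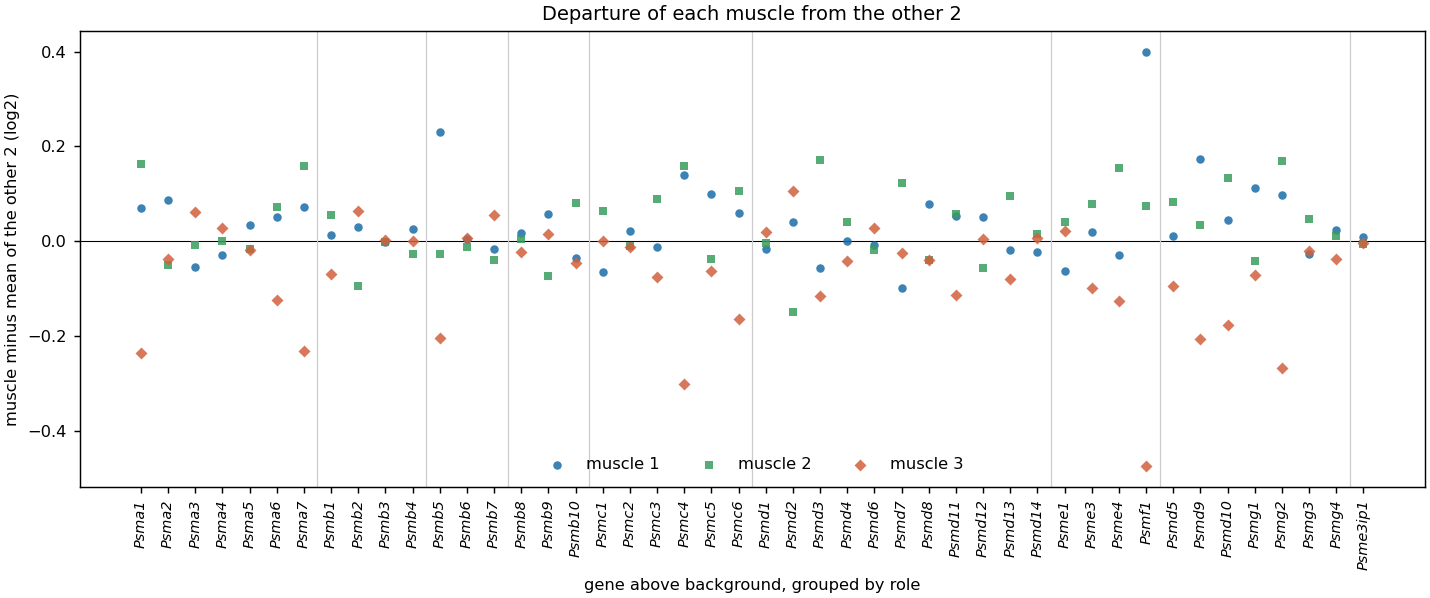
Departure of each muscle from the mean of the other 2 (log2, vertical axis) for each of the 46 detected members, ordered by role as in the plot of levels; circles, squares and diamonds are muscles 1, 2 and 3. Most points lie within 0.2 of zero; Psmf1 has the widest spread, from -0.47 in muscle 3 to 0.40 in muscle 1.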

How the data were processed

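RNA of 3 normal muscles was isolated with Trizol and a biotin label was introduced from 500 ng, per the labels' protocols. The deposited values are log2 RMA levels of probe sets, as the submitters' processing notes name RMA: background subtraction, quantile normalization and a summary over probes. Neither the RMA version nor the set of arrays normalized jointly is stated. Quantile normalization hides changes shared by most genes. The number of arrays limits the precision.

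Of 22690 probe sets, 20393 had 1 gene symbol in GEO's platform annotation, 691 several and 1606 none, and only the first were used. All 48 members matched RefSeq by Entrez number with the same symbol. With 1 group there is no contrast. In limma 3.58.1 (R 4.3.3) each detected gene's variance (2 degrees of freedom) was compared with a robust prior with a trend on level (one-sided F test, Benjamini-Hochberg at 0.05). The code was run on normal values simulated with the fitted prior SD of each gene. That check cannot show how the test behaves on real differences in variance between genes. Python 3.11.15 was used otherwise. Named genes were chosen by role, list order, width of range or disagreement of probe sets. The members, lists and motifs were chosen with earlier results of these data known. Alternatives were other normalizations, probe set rules, background levels and limma settings, and leaving out each muscle.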

Additional observations from a re-analysis of the deposited data

How the results depend on the processing

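No paired analysis was possible because there is a single group and no contrast. Of the 48 members 41 were detected with the mean over probe sets, 44 with the 99th percentile background, 47 with receptor genes as background and 46 without any 1 muscle; without probe sets matching several transcripts 36 of the 40 members left were detected. The counts of members with a range of at least 1.5-fold and of members called by limma's variance test were 0 under every alternative run, with 6 members at an unadjusted p under 0.05 in the main setting and 1 to 6 in the others. The median SD of 0.0488 was 0.0322 to 0.043 with any 2 muscles, lowest without muscle 2. That over all genes, 0.0796, was 0.055 to 0.0668. SDs of 2 and of 3 values are not directly comparable, and no cause was tested. The count of members lowest in muscle 3, an outcome added after the data were seen, fell from 26 to 17 without probe sets matching several transcripts, where 36 members were left. The median departure of muscle 1, 0.02, was -0.01 without muscle 3. The mean over probe sets moved the level of 21 of 48 members by more than their SD, leaving out probe sets matching several transcripts that of 10 of 40, and quantile normalization that of 1 of 48. The values hold no detection calls, so dim members such as Psmb9 and Psmd10 depend on the background chosen.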
